A study of Mus musculus with 54 samples.

Results

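The 8 genes that flank Mbd5 on mouse chromosome 2, Acvr2a, Orc4, Epc2, Kif5c, Lypd6b, Lypd6, Mmadhc and Rnd3, were followed in the brain of mice with a gene trap in Mbd5. They were chosen by name and position, not by their values, and are 8 of the 47069 genes of the count table. RNA-seq was done on the cerebellum, cortex and striatum of 10 Mbd5+/GT mice (5 females and 5 males) and 8 WT mice (5 females and 3 males) at 8 weeks of age, which gave 54 libraries, each from 1 region of 1 mouse. All mice were on a C57BL/6 background. The Mbd5+/GT mice carried the allele B6;CB-Mbd5Gt(pU-21B)205Imeg on 1 chromosome, a gene-trap vector that had landed in an intron near the 5′ end of Mbd5 in the embryonic stem cell line Ayu21-B205, so the model is a single insertion event and a hypomorph rather than a null. The trapped chromosome passed through those stem cells, so alleles linked to Mbd5 and the trap itself cannot be told apart here. The animals came from 3 litters, of which litter 1 held 3 Mbd5+/GT and 3 WT females, litter 2 held 4 Mbd5+/GT males and 1 WT male, and litter 3, with both sexes, held 3 Mbd5+/GT mice and 4 WT mice.

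Mbd5 encodes a chromatin protein with a methyl-CpG-binding domain, and the human counterpart of this interval is lost in part or whole in the 2q23.1 microdeletion syndrome, in which MBD5 is the gene held to matter most. An insertion that disturbs 1 gene can in principle reach its neighbours, through shared promoters or enhancers or through reads that run past a gene's end, which makes the flanking genes a natural check on a gene-trap line. The neighbours have unrelated roles. Acvr2a is a type II receptor for activins and for some BMPs that signals through SMAD proteins. Orc4 is a subunit of the origin recognition complex, which marks where DNA replication can begin. Epc2 is a subunit of the NuA4/TIP60 histone acetyltransferase complex. Kif5c is a neuronal heavy chain of kinesin-1, the motor that carries cargo along axons. Lypd6 and Lypd6b are small Ly6 proteins anchored in the membrane that bind nicotinic acetylcholine receptors. Mmadhc directs vitamin B12 to its cytosolic and mitochondrial enzymes, and Rnd3 is an atypical small GTPase that opposes ROCK1.

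In GRCm38 coordinates, Acvr2a (ENSMUSG00000052155) lies at chr2:48814109-48903269 on the plus strand and Orc4 (ENSMUSG00000026761) at chr2:48902824-48950277 on the minus strand. Mbd5 (ENSMUSG00000036792) follows at chr2:48949508-49325405 on the plus strand. The genes Acvr2a and Orc4 converge and overlap by 446 bases at their 3′ ends, while Orc4 and Mbd5 overlap by 770 bases at their 5′ ends. Of the exon bases, 7.84% in Acvr2a, 7.8% in Orc4 and 0.69% in Mbd5 lay in an exon of the gene on the other strand, and which strand column of the counts was kept is not given in the sources used here, so a small part of the counts of these 3 genes may belong to the neighbour. On the far side of Mbd5 lie Epc2 (126.1 kb away, plus strand), Kif5c (293.9 kb, plus), Lypd6b (462.3 kb, plus), Lypd6 (741.0 kb, plus), Mmadhc (954.5 kb, minus) and Rnd3 (1805.0 kb, minus), none of which shares an exon base with another gene.

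The promoter windows are shown because of this arrangement. RefSeq (GRCm38.p6) windows from 250 bases before to 50 bases after a transcript start were found for 6 of the 8 neighbours and for Mbd5. The starts of Mbd5 and of 1 of the Orc4 transcripts point away from each other and are 241 bases apart, so their windows share 260 bases and the first sequence printed holds both starts. It is given 5′ to 3′ on the Mbd5 strand, chr2:48949258-48949557, with the palindrome CACGTG and the motif CCGGAA (or its reverse complement TTCCGG) in capitals. The window of Acvr2a, chr2:48813859-48814158 on the plus strand, and that of Kif5c, chr2:49619036-49619335 on the plus strand, are shown beside it, with CCGGAA, TGACGTCA or TATAAA (reverse complement TTTATA) in capitals.
Mbd5 and Orc4: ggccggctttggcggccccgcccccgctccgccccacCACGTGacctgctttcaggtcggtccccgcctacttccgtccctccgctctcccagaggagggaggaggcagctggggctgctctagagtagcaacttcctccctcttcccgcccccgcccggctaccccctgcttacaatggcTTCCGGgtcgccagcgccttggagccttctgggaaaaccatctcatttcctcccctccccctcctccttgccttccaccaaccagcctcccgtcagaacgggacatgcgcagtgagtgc
Acvr2a: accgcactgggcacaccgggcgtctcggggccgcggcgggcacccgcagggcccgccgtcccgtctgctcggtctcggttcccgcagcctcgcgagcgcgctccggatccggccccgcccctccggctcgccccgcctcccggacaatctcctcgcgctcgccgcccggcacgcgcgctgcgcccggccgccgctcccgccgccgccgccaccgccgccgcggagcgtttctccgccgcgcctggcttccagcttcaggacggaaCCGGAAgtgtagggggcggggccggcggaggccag
Kif5c: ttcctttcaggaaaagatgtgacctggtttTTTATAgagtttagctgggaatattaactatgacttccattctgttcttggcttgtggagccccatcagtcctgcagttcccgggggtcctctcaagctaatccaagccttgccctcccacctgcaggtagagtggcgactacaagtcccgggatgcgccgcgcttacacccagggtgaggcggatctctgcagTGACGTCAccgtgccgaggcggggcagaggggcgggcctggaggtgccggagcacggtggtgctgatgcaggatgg

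These windows differ in base composition and in the motifs searched. The shared Mbd5 window holds 19 CpG dinucleotides and the Acvr2a window 54, more than 99.7% of all 32851 windows, while the Kif5c window holds 14. The median over all windows was 7. The shared Mbd5 and Orc4 window holds 1 CACGTG, found on either strand in 7.15% of all windows, and 1 CCGGAA, found in 14.9%. A CCGGAA also stands in the Acvr2a window. The Kif5c window holds a TGACGTCA, the cyclic AMP response element palindrome, present in 1.79% of windows, and a TATAAA, present in 13.6%. None of the 3 holds CCAAT on either strand, which 37.4% of all windows do. Windows were searched for these 5 motifs and no others, and a match describes letters only.

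Libraries held between 25295973 and 49027399 counts on genes (median 29073866), the labelled sex fitted Ddx3y in 54 of 54 libraries, and no 2 libraries of a group were alike within counting error. The labelled regions were checked against marker genes. Hindbrain Hox genes (8 of 8 with at least 10 counts in each of 4 libraries) summed to between 37.9 and 228.5 CPM in the cerebellum libraries of 2 Mbd5+/GT mice (M755 and M756) and 2 WT mice (M754 and M761), against at most 1.85 CPM in the other 14. The summed level of 6 cerebellar neuron markers in those 4 ran from 260.8 to 4732 CPM, against 5173 to 5946 CPM in the other 14. In striatum, 5 libraries (M755, M756 and M763 of the Mbd5+/GT group, M754 and M761 of the WT group) had a summed level of 6 striatal projection neuron markers between 127.2 and 1085 CPM, under the 1261 CPM of the highest cortex library, whereas the other 13 held 1474 to 5737 CPM. Several results that rest on these 9 libraries are given with and without them, and all others include them. No list of markers differed between genotypes in striatum by an exact permutation test (p = 0.65 for the striatal and 0.77 for the cortical excitatory neuron markers).

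Mbd5 itself was lower in Mbd5+/GT mice in each region. In cortex it ran from 40.4 to 52.0 CPM (median 45.0) in the 10 Mbd5+/GT mice and from 47.8 to 73.9 CPM (median 65.8) in the 8 WT mice. The groups overlapped only between 47.8 and 52.0 CPM. The fitted log2 fold change was −0.49 (SE 0.05, adjusted p = 0.00012, edgeR quasi-likelihood test with surrogate variables) in cortex, −0.51 (SE 0.05, adjusted p = 9.41e-05) in striatum and −0.34 (SE 0.05, adjusted p = 0.0091) in cerebellum. Without surrogate variables the change was −0.51, −0.43 and −0.39, with an adjusted p of 0.057, 0.84 and 1. At an adjusted p under 0.05 the background was 0.00551% of all genes tested in cerebellum, 0.0107% of those in cortex and 0.00539% of those in striatum.

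**Figure D1:**
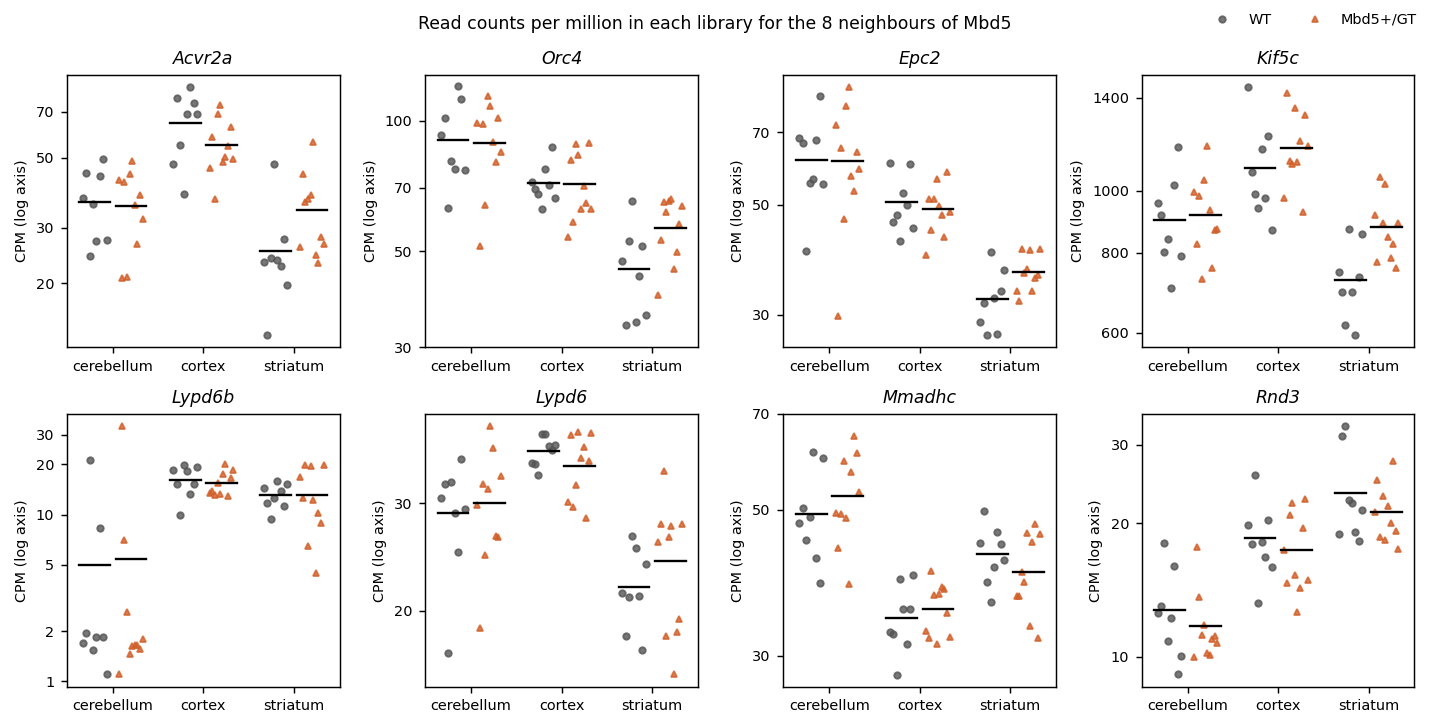
Library-scaled counts (TMM-normalized CPM, log axis) of the 8 neighbours in each of the 54 libraries, by region, with WT mice as grey circles and Mbd5+/GT mice as orange triangles. Black bars are group means. Lypd6b in cerebellum runs from 1.10 to 33.9 CPM, and Kif5c in striatum has a mean of 877 CPM in Mbd5+/GT mice and 726 CPM in WT mice.

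Levels of the neighbours were first compared among the regions of WT mice, on counts scaled to library size (TMM-normalized CPM). In bulk tissue a lower level can come from fewer cells of a type or from less RNA per cell, and these cannot be told apart. Between cerebellum and cortex 6 of the 8 differed at an adjusted p under 0.05 (edgeR quasi-likelihood test), 1 higher and 5 lower in cerebellum, where 56.5% of all genes did (28.4% higher, 28.2% lower). Between cerebellum and striatum 7 differed, 5 higher and 2 lower in cerebellum (66.2% of all genes, 32% higher and 34.3% lower). Between cortex and striatum 6 differed, 5 higher and 1 lower in cortex (49.1% of all genes, 23.8% higher and 25.3% lower). Shares of this size are not particular to the neighbours, but the order of the regions varied from gene to gene.

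Acvr2a was highest in cortex, an order it shared with Kif5c and Lypd6. It ran from 38.4 to 84.0 CPM (median 69.0) in WT cortex, from 24.4 to 49.4 CPM (median 36.5) in cerebellum and from 13.7 to 47.8 CPM (median 23.5) in striatum. The striatal maximum came from mouse M757, and the other 7 WT striata lay at or under 27.7 CPM. Cortex exceeded cerebellum by 0.89 (SE 0.20, adjusted p = 0.0005) and striatum by 1.36 (SE 0.20, adjusted p = 2.89e-05) on the log2 scale. Cerebellum exceeded striatum by 0.47 (SE 0.20, adjusted p = 0.043), a call that was lost with the mouse as a block (adjusted p = 0.059), without the libraries set apart by markers (0.50, adjusted p = 0.074) and with no filter on low counts (adjusted p = 0.062).

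Orc4 and Epc2 shared an order, with cerebellum and cortex above striatum. Orc4 ran from 63.0 to 119.8 CPM (median 86.5) in WT cerebellum, from 62.5 to 86.9 CPM (median 70.2) in cortex and from 33.7 to 65.4 CPM (median 45.5) in striatum. Cerebellum exceeded striatum by 0.94 (SE 0.13, adjusted p = 1.17e-06) and cortex exceeded striatum by 0.67 (SE 0.13, adjusted p = 0.00037) on the log2 scale. Epc2 had medians of 61.3, 48.7 and 32.0 CPM in the same order of regions. Its cerebellum exceeded its striatum by 0.88 (SE 0.11, adjusted p = 3.38e-07), and cortex exceeded striatum by 0.66 (SE 0.11, adjusted p = 0.00012). Cerebellum and cortex were not told apart by this test for Orc4 (log2 difference 0.27, 95% interval 0.0019 to 0.54, adjusted p = 0.080) or Epc2 (0.22, −0.012 to 0.45, adjusted p = 0.0997), although without the libraries set apart by markers the Epc2 difference was 0.32 with an adjusted p of 0.013.

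Kif5c was the most abundant of the 8 in every region. It ran from 868 to 1455 CPM (median 1029) in WT cortex, from 705 to 1170 CPM (median 879) in cerebellum and from 595 to 873 CPM (median 715) in striatum. Cortex exceeded cerebellum by 0.33 (SE 0.11, adjusted p = 0.014) and striatum by 0.59 (SE 0.11, adjusted p = 0.00023) on the log2 scale. Its cerebellum and striatum differed by 0.26 (SE 0.11, adjusted p = 0.039), and this call did not hold with the mouse as a block (adjusted p = 0.05001) or without the libraries set apart by markers (0.21, adjusted p = 0.15).

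The Ly6 pair differed in the order of the regions. Lypd6 ran from 33.4 to 39.0 CPM (median 36.9) in WT cortex, from 17.04 to 35.4 CPM (median 29.97) in cerebellum and from 17.2 to 26.6 CPM (median 21.3) in striatum, and each pair of regions differed (adjusted p = 0.0033, 0.0068 and 2.64e-05). Lypd6b had medians of 16.8 CPM in WT cortex and 13.2 CPM in WT striatum, which were not told apart (log2 difference 0.32, 95% interval −0.61 to 1.252, adjusted p = 0.57). In WT cerebellum its median was 1.85 CPM, with a range of 1.10 to 21.4 CPM.

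The spread of Lypd6b in cerebellum followed the Hox-positive libraries. In the 4 libraries with hindbrain Hox counts Lypd6b was at 33.9 and 7.07 CPM (Mbd5+/GT mice M755 and M756) and at 21.4 and 8.30 CPM (WT mice M754 and M761). In the 14 without them it ran from 1.10 to 2.61 CPM, so the libraries did not overlap. Rnd3 in the same 4 libraries ran from 13.6 to 18.04 CPM, above the 9.13 to 13.02 CPM of the other 14. The 5 oligodendrocyte markers were higher there too, at a summed 8316 to 30190 CPM against 3879 to 7581 CPM, and the part of each cell type in this difference was not tested. With all WT libraries Lypd6b in cerebellum was lower than in cortex by 1.75 (SE 0.47, adjusted p = 0.0025) on the log2 scale, and without the WT libraries set apart by markers it was lower by 3.30 (SE 0.17, adjusted p = 3.13e-13). Against striatum the deficit was 1.43 (SE 0.46, adjusted p = 0.0092) with all WT libraries and 3.03 (SE 0.17, adjusted p = 2.04e-12) without those set apart.

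**Figure D2:**
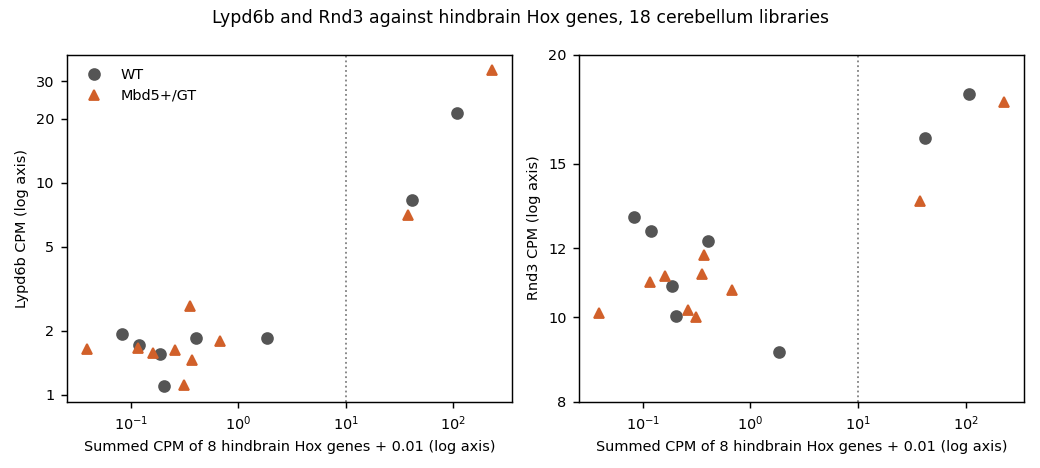
CPM of Lypd6b (left) and Rnd3 (right) in the 18 cerebellum libraries against the summed CPM of 8 hindbrain Hox genes (0.01 added, both axes log), with WT mice as grey circles and Mbd5+/GT mice as orange triangles. The dotted line marks 10 CPM, and the 4 libraries to its right hold 7.07 to 33.9 CPM of Lypd6b and 13.6 to 18.04 CPM of Rnd3.

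Mmadhc was lowest in cortex. It ran from 38.7 to 61.2 CPM (median 48.2) in WT cerebellum, from 36.2 to 49.8 CPM (median 43.1) in striatum and from 28.1 to 39.8 CPM (median 33.9) in cortex. Cerebellum exceeded cortex by 0.47 (SE 0.10, adjusted p = 0.00024) and striatum exceeded cortex by 0.31 (SE 0.10, adjusted p = 0.011) on the log2 scale, whereas cerebellum and striatum were not told apart (0.16, 95% interval −0.046 to 0.36, adjusted p = 0.16). Rnd3 was lowest in cerebellum, at 9.13 to 18.04 CPM (median 12.4), against 13.2 to 25.6 CPM (median 18.03) in cortex and 18.2 to 33.1 CPM (median 21.8) in striatum. Cerebellum was lower than cortex by 0.60 (SE 0.15, adjusted p = 0.0020) and lower than striatum by 0.92 (SE 0.15, adjusted p = 1.36e-05). Without the libraries set apart by markers it was lower by 0.73 and 1.01. The cortex and striatum of Rnd3 differed by −0.33 (SE 0.15, adjusted p = 0.081), which passed the threshold with the mouse as a block (−0.32, adjusted p = 0.034).

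Levels between genes were compared per kilobase of exon, counting every annotated exon base of a gene, used in brain or not (19632 for Mbd5, 7458 for Orc4). In WT cortex Kif5c stood at 151.9 ± 26.5 CPM per kb (SD, n = 8), far above Mmadhc at 17.02 ± 1.99 and Acvr2a at 11.3 ± 2.78. Epc2 (10.8 ± 1.46), Lypd6 (9.80 ± 0.54) and Orc4 (9.61 ± 1.01) came next, all within 1 SD of Acvr2a, so these genes are not ranked. They were followed by Lypd6b (6.22 ± 1.31), Rnd3 (4.17 ± 0.83) and Mbd5 itself (3.28 ± 0.46). Against their closest relatives, Kif5c was under Kif5a in WT cortex (510.9 ± 108.8 CPM per kb) and above Kif5b (35.3 ± 7.37). Acvr2a was above Acvr2b (0.67 ± 0.31), the other type II activin receptor. Rnd3 was the lowest of the Rnd genes in cortex, under Rnd1 (7.25 ± 1.75) and Rnd2 (45.1 ± 9.72). Orc4 was near Orc2 (9.79 ± 0.80) and Orc6 (9.09 ± 0.87) in cortex, while Orc1, whose transcription is tied to the cell cycle, was at 0.049 ± 0.017 CPM per kb.

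The comparison of Mbd5+/GT with WT mice asks whether the gene trap also shifts the genes around it. No neighbour passed an adjusted p under 0.05 in any region, with edgeR or with DESeq2. At an unadjusted p under 0.05 the counts were 0 of 8 in cerebellum (2.75% of all genes), 0 of 8 in cortex (8.47%) and 3 of 8 in striatum, all higher in Mbd5+/GT mice (7.44% of all genes in both directions, 4.24% higher), and the same counts came from DESeq2. The striatal count stayed at 3, all higher, with other size factors, with litter and sex as covariates and with no filter on low counts. It was also 3 with no surrogate variables (5.44% of all genes in that fit). Without the 5 libraries low in striatal markers it was 1 (Kif5c), beside 5.75% of all genes in that fit. It was 1 with at least 10 counts required in every library (Kif5c), 1 without the 2 WT libraries labelled rep (Orc4) and 0 without litter 2. In cortex the count was 1 with at least 10 counts required in every library (Kif5c, higher). The median log2 fold change of the 8 was 0.0010 in cerebellum, −0.049 in cortex and 0.068 in striatum, beside −0.0035, −0.0042 and −0.0099 over all genes tested.

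**Figure D3:**
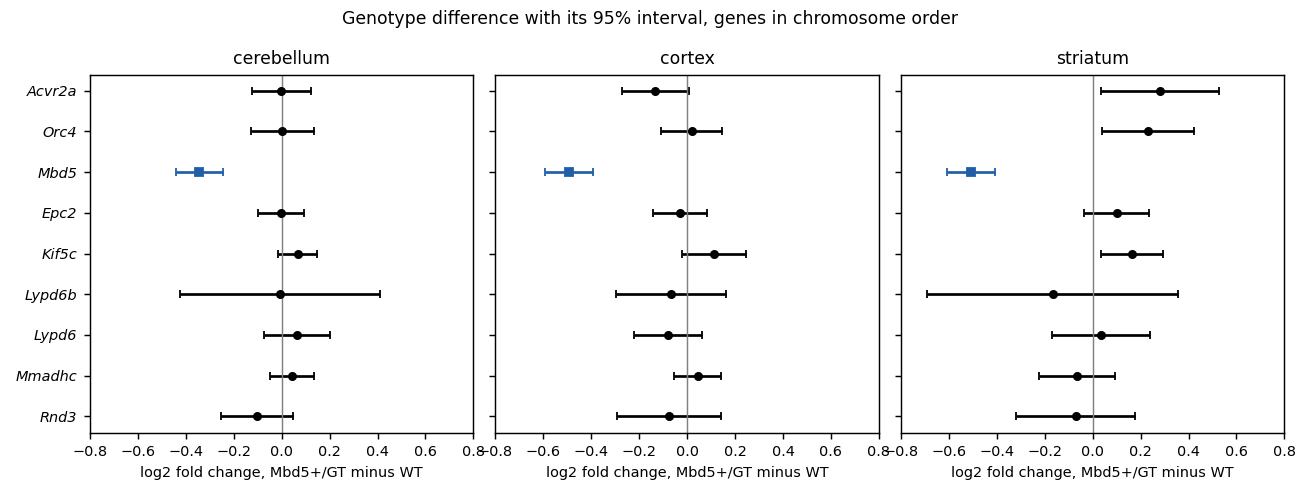
Log2 fold change of Mbd5+/GT against WT mice with its 95% interval (edgeR, surrogate variables) for Mbd5 (blue square) and the 8 neighbours (black circles) in chromosome order, by region. Mbd5 lies at −0.34, −0.49 and −0.51, and the only neighbour intervals that leave 0 out are those of Acvr2a, Orc4 and Kif5c in striatum.

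In cerebellum the fitted changes of the neighbours nearest to the trap were close to 0. Orc4, whose promoter window overlaps that of the trapped gene, ran from 51.3 to 113.8 CPM (median 93.7) in Mbd5+/GT mice and from 63.0 to 119.8 CPM (median 86.5) in WT mice. The ranges overlapped over most of their length. Its fitted change was 0.0033 on the log2 scale (95% interval −0.13 to 0.13, adjusted p = 0.9999). Acvr2a stood at −0.0013 (−0.12 to 0.12) and Epc2 at −0.0026 (−0.097 to 0.092), the next nearest genes on either side. Apart from Lypd6b (−0.42 to 0.41), whose spread follows the Hox-positive libraries, the intervals of the neighbours lay between a fall of 16.2% and a rise of 14.96%, and without surrogate variables between a fall of 25.3% and a rise of 26.6%. Of the 8 intervals 7 lay wholly above the fitted value of Mbd5 in the same fit, a fall of 21.2%, Lypd6b being the exception. Without surrogate variables 5 of 8 did, the others being Acvr2a, Lypd6b and Rnd3. The interval of Mbd5 itself ran from a fall of 26.4% to 15.5%, and without surrogate variables from 38% to 5.6%. It overlapped the intervals of Lypd6b and Rnd3 in the first fit and of all 8 neighbours in the second. Without the 4 Hox-positive libraries Lypd6b changed by 0.018 (SE 0.16, adjusted p = 0.9999) and Orc4 by 0.033 (SE 0.06, adjusted p = 0.9999).

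In cortex the intervals of all 8 neighbours lay above the fitted 28.9% fall of Mbd5 with surrogate variables. Without them 7 of 8 lay above its fitted value, Acvr2a being the exception. The interval of Mbd5 itself ended at a fall of 23.7%, under those of the neighbours. Without surrogate variables it ended at a fall of 21.3% and overlapped those of Acvr2a and Rnd3. Acvr2a ran from 36.9 to 73.8 CPM (median 52.3) in Mbd5+/GT mice and from 38.4 to 84.0 CPM (median 69.0) in WT mice. Its ranges overlapped, and its log2 fold change of −0.13 (SE 0.07, 95% interval −0.27 to 0.0073, unadjusted p = 0.062, adjusted p = 0.62) was the largest among the neighbours there. Orc4 changed by 0.019 (−0.11 to 0.15) and Epc2 by −0.030 (−0.14 to 0.081). Kif5c ran from 927 to 1425 CPM (median 1144) in Mbd5+/GT cortex and from 868 to 1455 CPM (median 1029) in WT cortex, a log2 fold change of 0.11 (SE 0.06, adjusted p = 0.67). The striatal markers stood at a summed 178.3 to 836.5 CPM in Mbd5+/GT cortex and 112.8 to 1261 CPM in WT cortex (exact permutation p = 0.23 for the sum). In the fit without surrogate variables 6 of 6 were lower in Mbd5+/GT mice. The choroid plexus markers stood at 7.46 to 1238 CPM (median 290.0) and 12.2 to 238.4 CPM (median 63.2), with an exact permutation p of 0.17 for the sum. Of these markers 4 of 5 had an unadjusted p under 0.05 with surrogate variables and also without them, all higher. Of the motile cilium markers 4 of 5 had an unadjusted p under 0.05 with surrogate variables and 2 of 5 without them, all higher (exact permutation p = 0.089 for the sum). Over the 18 cortex libraries Acvr2a correlated at −0.75 with the summed cortical excitatory neuron markers and at −0.61 with the microglia markers. It stood at 0.40 with the striatal, −0.089 with the choroid plexus and 0.10 with the motile cilium markers. The part of these markers in the Acvr2a difference was not tested.

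In striatum Acvr2a, Orc4, Epc2 and Kif5c had a higher mean log2 CPM in Mbd5+/GT mice. So did Lypd6, 741.0 kb away (difference 0.12, exact permutation p = 0.43), while Lypd6b, Mmadhc and Rnd3 had a lower one. Kif5c ran from 758.4 to 1052 CPM (median 869) in Mbd5+/GT mice and from 595 to 873 CPM (median 715) in WT mice. All 10 Mbd5+/GT values exceeded the WT mean on the log2 scale, and 5 of the 10 lay inside the WT range, so the groups overlapped. The fitted log2 fold change was 0.16 (SE 0.06, 95% interval 0.035 to 0.29, unadjusted p = 0.015, adjusted p = 0.63). The plain difference of mean log2 CPM, with no surrogate variables, was 0.28 (exact 2-sided permutation p = 0.0051 over 43758 splits of the mice, and 0.0089 over the 3500 splits within litters). By litter it was 0.45 in litter 1, −0.074 in litter 2 and 0.32 in litter 3, so the single WT mouse of litter 2 went the other way. Leaving out each mouse in turn gave 0.24 to 0.32, with a permutation p under 0.05 in 18 of 18 cases. Without the 5 libraries low in striatal markers it was 0.18 (exact permutation p = 0.0495, 7 against 6 mice).

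Orc4 and Acvr2a were higher by more, with a wider spread. Orc4 ran from 39.6 to 66.1 CPM (median 59.6) in Mbd5+/GT striatum and from 33.7 to 65.4 CPM (median 45.5) in WT striatum. Of the Mbd5+/GT mice 9 of 10 exceeded the WT mean, and 9 of 10 lay inside the WT range, whose maximum came from mouse M757. The fitted change was 0.23 (SE 0.09, unadjusted p = 0.022, adjusted p = 0.63), and the plain difference was 0.33 (exact permutation p = 0.033), or 0.59, 0.59 and 0.086 in litters 1, 2 and 3. Leaving out each mouse in turn gave 0.28 to 0.41, with an exact permutation p under 0.05 in 11 of 18 cases and a highest p of 0.069. Acvr2a ran from 23.2 to 56.1 CPM (median 32.2) in Mbd5+/GT striatum and from 13.7 to 47.8 CPM (median 23.5) in WT striatum. Its fitted change was 0.28 (SE 0.12, unadjusted p = 0.028, adjusted p = 0.63), and its plain difference of 0.45 had an exact permutation p of 0.052, with 0.80, 0.37 and 0.50 in the 3 litters. Leaving out 1 mouse at a time moved it between 0.34 (without WT mouse M752, p = 0.12) and 0.59 (without WT mouse M757, p = 0.0044), all by the exact permutation test.

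The values for Orc4 and Acvr2a depended on which libraries were used. Without the 5 libraries low in striatal markers the plain difference was 0.32 (exact permutation p = 0.11) for Orc4 and 0.25 (p = 0.36, exact permutation) for Acvr2a, and the fitted changes were 0.21 and 0.14. In the fit without litter 2, which recomputes the surrogate variables on 13 mice, Acvr2a stood at −0.016 and Orc4 at 0.074, while the plain differences without that litter were 0.65 (exact permutation p = 0.028) and 0.33 (p = 0.096, exact permutation). Without the 2 WT libraries labelled rep, the fitted changes were 0.25 for Acvr2a (unadjusted p = 0.095), 0.23 for Orc4 (unadjusted p = 0.032) and 0.14 for Kif5c (unadjusted p = 0.054). Acvr2a and Orc4 overlap at their ends and share a small part of their exons, so they are not fully separate measurements. Over the 18 striatum libraries the summed astrocyte markers correlated at 0.60 with Acvr2a, 0.49 with Orc4, −0.12 with Epc2 and −0.096 with Kif5c. The part of cell types in the genotype differences was not tested.

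The other neighbours gave smaller or less certain values in striatum. Epc2 ran from 32.1 to 40.8 CPM (median 36.3) in Mbd5+/GT mice and from 27.3 to 40.2 CPM (median 32.0) in WT mice. All 10 Mbd5+/GT values exceeded the WT mean on the log2 scale, and the plain difference was 0.19 (exact permutation p = 0.026), whereas the fitted change was 0.10 (SE 0.07, adjusted p = 0.77) and the difference without the 5 libraries low in striatal markers was 0.097 (p = 0.22, exact permutation). Lypd6 changed by 0.036 (SE 0.10), Mmadhc by −0.065 (SE 0.08) and Rnd3 by −0.070 (SE 0.12), with adjusted p from 0.90 to 0.97. Lypd6b ran from 4.48 to 19.9 CPM (median 12.4) in Mbd5+/GT mice and from 9.47 to 15.9 CPM (median 13.2) in WT mice, a fitted change of −0.17 (95% interval −0.69 to 0.36). Its 2 lowest striatal values, 4.48 and 6.45 CPM, were in Mbd5+/GT mice M764 and M758, the libraries with the lowest summed level of 5 cortical excitatory neuron markers (18.6 and 169.1 CPM). Of the 8 intervals 7 lay above the fitted value of Mbd5, a fall of 29.6%, and that of Lypd6b did not.

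**Figure D4:**
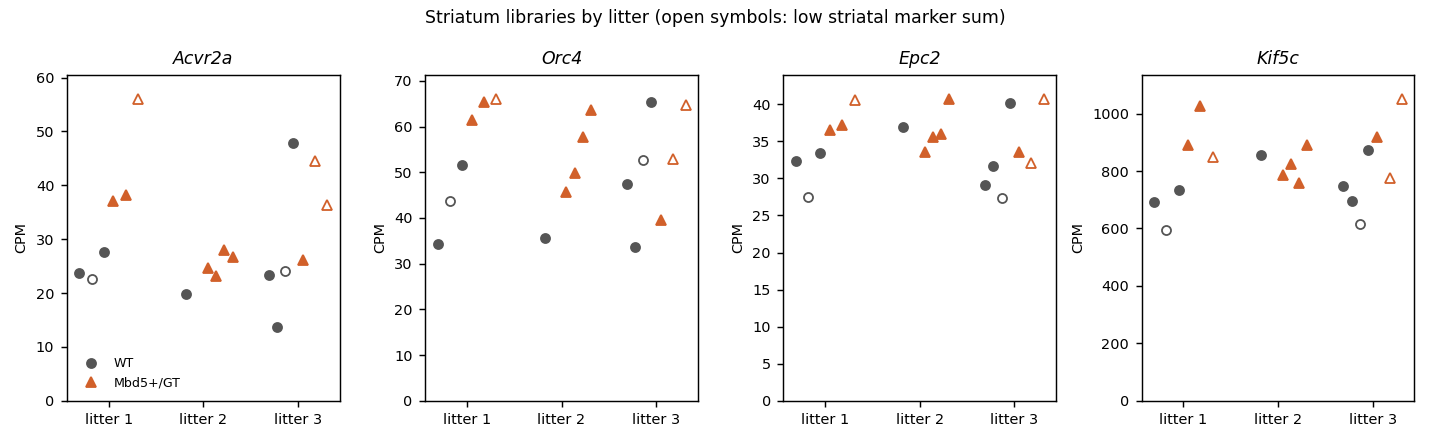
CPM of Acvr2a, Orc4, Epc2 and Kif5c in the 18 striatum libraries by litter, with WT mice as grey circles and Mbd5+/GT mice as orange triangles, and open symbols for the 5 libraries low in striatal markers. For Kif5c every Mbd5+/GT mouse of litter 1 lies above every WT mouse of that litter (848 to 1027 against 595 to 734 CPM), and the single WT mouse of litter 2 (856 CPM) lies inside its litter's Mbd5+/GT range.

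Whether the genotype difference itself varied with region was tested on all 54 libraries without surrogate variables. No neighbour passed an adjusted p under 0.05 in the 3 contrasts with edgeR or DESeq2, where 0% of all genes did with edgeR. At an unadjusted p under 0.05, 0 of 8 passed for cortex against cerebellum (1.11% of all genes), 0 of 8 for striatum against cerebellum (2.68%) and 1 of 8 for cortex against striatum (4.22%), with either tool. Acvr2a was lower in Mbd5+/GT cortex and higher in Mbd5+/GT striatum, a difference of −0.67 on the log2 scale (SE 0.27, unadjusted p = 0.016, adjusted p = 0.99). Without the 9 libraries set apart by markers it was −0.39 (SE 0.27, unadjusted p = 0.15), and with the mouse as a block it was −0.66 (unadjusted p = 0.025). The striatal difference of Kif5c was not shown to differ from its change in cortex (−0.18, SE 0.14, unadjusted p = 0.22) or cerebellum (0.25, SE 0.14, unadjusted p = 0.090).

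The neighbours were then set among all genes within 5 Mb of the Mbd5 gene body. Of 94 annotated genes 28 passed the filter on low counts. In striatum 6 of the 28 had an unadjusted p under 0.05, all higher in Mbd5+/GT mice (21.4%, beside 7.44% of all genes), in cortex 1 and in cerebellum 1, both lower (3.57% each, beside 8.47% and 2.75%). The median log2 fold change of the 28 was 0.063 in striatum, beside −0.0099 over all genes. Besides Kif5c, Orc4 and Acvr2a the 6 were Rbm43, which lies 2599 kb away (0.15, SE 0.06, adjusted p = 0.63), Cacnb4, a calcium channel subunit gene (0.17, SE 0.08, adjusted p = 0.65), and Fmnl2, a formin gene (0.21, SE 0.09), the last 2 named after their values were seen. Without the 5 libraries low in striatal markers 2 of the 28 were higher and 2 lower (14.3%, beside 5.75% of all genes in that fit). In cortex the value was that of Neb, the giant muscle protein nebulin, at a mean of only 2.06 CPM (−0.29, SE 0.13, adjusted p = 0.55). In cerebellum it was that of Rprm, a p53 target, at 1.62 CPM (−0.29, SE 0.12, adjusted p = 0.9999). The next smallest unadjusted p in cerebellum was that of Rbm43 (0.099, SE 0.05, unadjusted p = 0.081), and in cortex they were those of Acvr2a and then of the processed pseudogene Gm13509, which lies inside Mbd5 (−0.091, SE 0.05, unadjusted p = 0.072). No gene passed an unadjusted p under 0.05 in more than 1 region, and none had an adjusted p under 0.05.

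**Figure D5:**
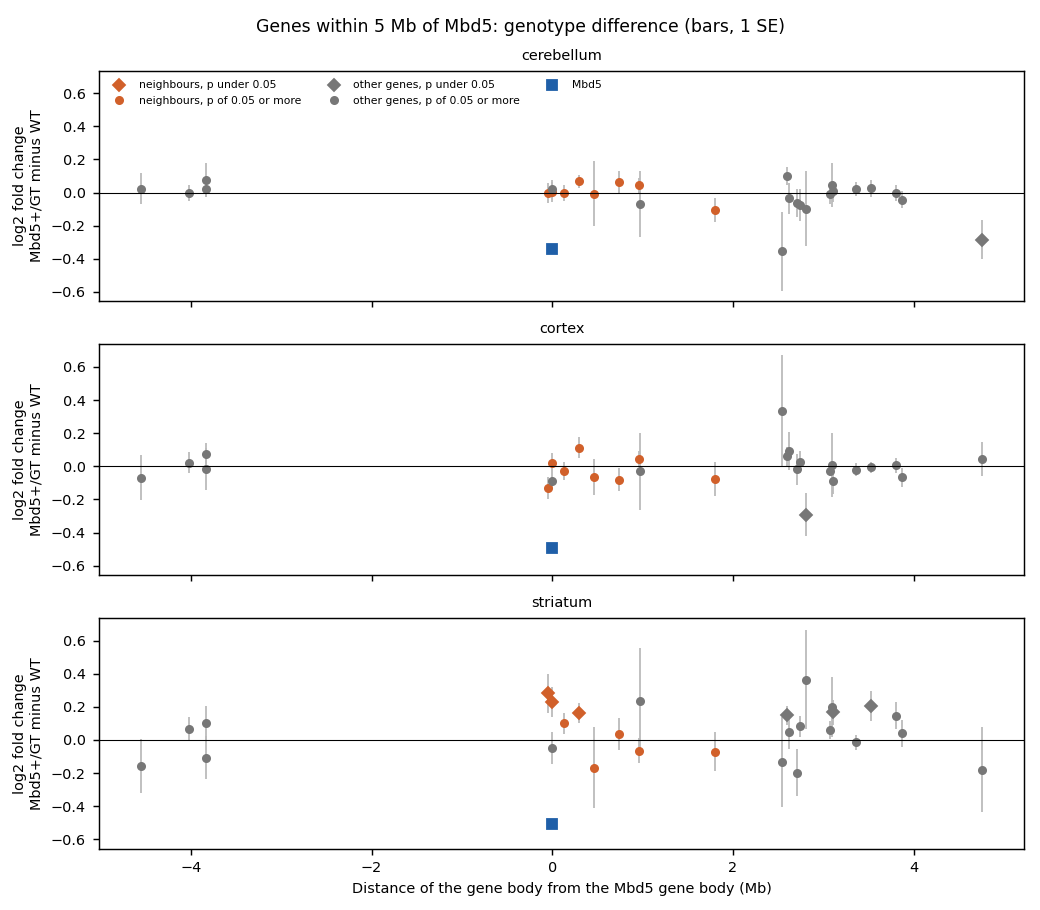
Log2 fold change of Mbd5+/GT against WT mice (1 SE as bars) for the 28 tested genes within 5 Mb of Mbd5, by distance from the Mbd5 gene body in Mb, in cerebellum, cortex and striatum. Orange marks the 8 neighbours, grey the other genes, diamonds an unadjusted p under 0.05, and the blue square Mbd5. In striatum 6 diamonds lie above 0, and in cortex and cerebellum 1 each lies below it.

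Genes that work with the neighbours were counted in 7 lists, chosen for the neighbours' roles. None had an adjusted p under 0.05 with edgeR. At an unadjusted p under 0.05, 1 of 84 list members was higher and 3 were lower in cerebellum, 4 of 87 were higher and 2 lower in cortex, and 5 of 87 were higher and 3 lower in striatum, shares of 4.76%, 6.90% and 9.20% beside 2.75%, 8.47% and 7.44% of all genes. Among receptors that share ligands or partners with Acvr2a, Acvr1c (ALK7, a type I receptor) stood at −0.27 in cortex (SE 0.07, adjusted p = 0.31), and the BMP receptors Bmpr2 and Bmpr1a stood at 0.24 (SE 0.08) and 0.14 (SE 0.06) in striatum. The 13 origin and licensing genes and the 14 genes of the NuA4/TIP60 complex had no member with an unadjusted p under 0.05 in any region. In the list of kinesin-1 and its adaptors, Kif5a was at 0.13 (SE 0.06) and Jakmip1 at −0.15 (SE 0.06) in cortex.

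In the nicotinic list 3 of 10 members tested had an unadjusted p under 0.05 in cerebellum, all lower, beside 2.75% of all genes. In cortex 3 of 11 did, all higher, beside 8.47% of all genes, while the list's median in cortex was 0.0025. The cerebellum values include the Hox-positive libraries. Chrna3 and Chrnb4, receptor subunits of the same gene cluster, stood at −0.53 (SE 0.12, adjusted p = 0.55) and −0.51 (SE 0.12, adjusted p = 0.81) in cerebellum and at 0.81 (SE 0.37) and 1.27 (SE 0.45) in cortex. Lypd1, a relative of Lypd6, was at −0.32 (SE 0.08) in cerebellum, Chrna4 at 0.18 (SE 0.07) in cortex and Chrna7 at −0.25 (SE 0.12) in striatum. The cobalamin genes Mcee and Cd320 were at −0.18 (SE 0.07) and −0.19 (SE 0.08) in striatum. In the list around Rnd3, Arhgap5 was at 0.20 (SE 0.06), Rock2 at 0.14 (SE 0.05) and Rock1 at 0.22 (SE 0.09) in striatum, and Rnd1 at 0.12 (SE 0.04) in cerebellum. None of these values passed adjustment.

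The neighbours also varied among mice of the same group. After each library's log2 CPM was taken relative to the mean of its region and genotype, the Pearson correlation over 54 libraries, 3 from each mouse, was highest for Acvr2a and Orc4 (0.80), then for Orc4 and Epc2 (0.76) and Epc2 and Kif5c (0.72). It was lowest for Lypd6 and Rnd3 (−0.50), and the median over the 28 pairs of neighbours was −0.15. Acvr2a and Orc4 correlated at 0.94 in cerebellum, 0.67 in cortex and 0.73 in striatum. Mmadhc correlated negatively with several neighbours, at −0.47 with Acvr2a and −0.42 with Kif5c. Mbd5 correlated with Kif5c at 0.70 and with Mmadhc at −0.56. The 3 highest pairs are next to each other among the 8 in map order. So are Kif5c and Lypd6b (0.035), Lypd6b and Lypd6 (−0.26), Lypd6 and Mmadhc (−0.16) and Mmadhc and Rnd3 (−0.16). Acvr2a and Epc2, which are not, stood at 0.62. Within regions Lypd6b and Lypd6 stood at −0.76 in cerebellum, 0.49 in cortex and 0.83 in striatum. The cerebellum value includes the Hox-positive libraries, which the spread of Lypd6b follows.

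Among 12828 genes with a mean of at least 100 counts, the most like each neighbour in this measure were Cxadr and Ptbp2 for Acvr2a (0.92 for both) and Srsf10 and Trove2 for Orc4 (0.96 and 0.95), and for Epc2 the most alike was Cacnb4 (0.94), which lies 3103 kb from Mbd5 on the same chromosome. For Kif5c they were Hecw2 and Lmbrd1 (0.91 and 0.88), for Lypd6b Hs3st4 and Chrm3 (0.93 and 0.92), and for Lypd6 Syt1 and Trhde (0.80 and 0.79). For Mmadhc they were Ndufs4 and Blmh (0.93 and 0.90), and for Rnd3 Scg2 and Sall1 (0.66 and 0.64). Mbd5 was most like Ash1l and Zzef1 (0.95 for both). The libraries differ in depth and in tissue composition, which these correlations share.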

How the data were processed

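RNA from 3 brain regions of 18 mice was sequenced in 54 poly(A) libraries. The authors checked reads with FastQC 0.10.1, aligned them to GRCm38 with STAR 2.4.2 under default settings and deposited raw counts per gene (STAR gene counts, strand column not given in the sources used here), with no normalization. The 92 spike-in rows, 0.0207 to 0.728% of a library, were left out of the 47069 genes. Positions came from GENCODE vM21, which held 46574 of the gene IDs.

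Counts were analysed in R 4.3.3 with edgeR 4.0.16: a filter that kept a gene if 8 or more libraries of the fit had over 4 counts, TMM normalization, and the robust quasi-likelihood test with genotype and surrogate variables (svaseq, sva 3.50.0, 2 in cerebellum, 4 in cortex, 4 in striatum), with Benjamini-Hochberg adjustment over all genes tested. Region differences used the 8 WT mice and region by genotype terms all 54 libraries. Intervals are 95% and assume the surrogate variables known. Single values were tested by exact 2-sided permutation of mice on log2 CPM (prior count 2) with no surrogate variables, and these p-values are unadjusted. DESeq2 1.42.0, other size factors, filters, covariates, a litter left out, the mouse as a block and each mouse left out were tried. Leaving out libraries set apart by markers was chosen after seeing the data, as were the 2 rules that set them apart: a summed hindbrain Hox level over 10 CPM in cerebellum, or a striatal marker sum under the highest cortex library in striatum. The code was tested on simulated data.

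Mouse numbers mark the same animal across regions. Deviations from group means had a median correlation of 0.243, 0.105 and 0.154 within a mouse (cerebellum with cortex, cerebellum with striatum, cortex with striatum), and -0.0096, 0.00018 and -0.015 between mice, in 18 pairs each. The genes and lists were chosen with earlier results of these data known. Besides the neighbours and Mbd5, the genes named were the 3 with the smallest p per region within 5 Mb, any under p 0.05 in at least 2 regions, at most 3 per partner list and region under p 0.05, and the 2 most alike, of which 1 is not reported here. Each neighbour but Lypd6b had at least 245 counts in every library (Lypd6b 33 or more). Precision was therefore limited less by counting than by the number of mice and the spread among libraries.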

Additional observations from a re-analysis of the deposited data

Results flagged for a closer look

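Of 54 groups of a gene, region and genotype tested with Dixon's criterion, 4 held a value far from the others, where chance gives about 5% of groups. Acvr2a in WT striatum was highest in mouse M757, at 47.8 CPM beside 27.7 CPM in the next mouse. In cerebellum 3 values stood apart, all in libraries with hindbrain Hox counts. Lypd6b was highest in Mbd5+/GT mouse M755 at 33.9 CPM, with 7.07 CPM in the next mouse, and in WT mouse M754 at 21.4 CPM, with 8.30 CPM in the next mouse. Rnd3 was highest in Mbd5+/GT mouse M755 at 17.6 CPM, with 13.6 CPM in the next mouse. No genotype difference of a neighbour varied between regions at an adjusted p under 0.05 by edgeR, and 1 did at an unadjusted p under 0.05, that of Acvr2a between cortex and striatum.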

How the results depend on the processing

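Counts of neighbours, or of genes around Mbd5, that passed a threshold were the same or within 1.5 times in 72 of 82 alternatives. Many of these set 0 beside 0. In the genotype comparisons and the contrasts between regions 0 neighbours had an adjusted p under 0.05 in every setting, so agreement there says little. Of the 24 exact permutation tests of a neighbour on all libraries, 3 had an unadjusted p under 0.05. Without the libraries set apart by markers 1 did. With each mouse left out in turn 2 to 5 did, the most without WT mouse M757. Among single genes this test was run only on the neighbours and Mbd5, so no share over all genes stands beside these counts. Of the genes around Mbd5, 1 of 28 passed an unadjusted p under 0.05 in cerebellum, against 0 within 2 Mb, 2 within 10 Mb, 0 with no surrogate variables and 0 without the libraries set apart. In cortex 1 passed, against 0 within 2 Mb, 3 within 10 Mb and 0 with no surrogate variables. In striatum 6 of 28 passed (21.4%), against 3 of 10 within 2 Mb (30%) and 8 of 57 within 10 Mb (14.0%), beside 7.44% of all genes. With no surrogate variables 5 of 28 passed (17.9%, beside 5.44% of all genes). Without the libraries set apart 2 were higher and 2 lower (14.3%, beside 5.75%). Single values kept their direction and side of the threshold in 473 of 539 alternatives, 26 lost and 7 gained a call, and 33 changed sign, all of them values that passed no adjusted threshold. The cause was not tested.

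Log2 changes that changed sign in cerebellum were Lypd6b with DESeq2 (0.016), with no surrogate variables (0.12) and without the libraries set apart (0.018), Acvr2a (0.040) and Epc2 (0.038) with litter and sex as covariates, Epc2 (0.011) and Lypd6 (-0.026) without the libraries set apart, Orc4 with no surrogate variables (-0.025), and Orc4 (-0.057) and Epc2 (0.0057) without litter 2. In cortex they were Orc4 with a minimum of 10 counts (-0.032), litter and sex (-0.021), no filter (-0.042), no surrogate variables (-0.0075) and without litter 2 (-0.069), and Mmadhc with no filter (-0.0030). In striatum they were Lypd6 with a minimum of 10 counts (-0.0045) and without the libraries set apart (-0.070), Lypd6b with litter and sex (0.042), and without litter 2 Lypd6b (0.17), Acvr2a (-0.016), Epc2 (-0.027), Mmadhc (0.084) and Rnd3 (0.014). For the genotype effect in cortex minus cerebellum, the mouse as a replicate block gave -0.0042 for Orc4 and 0.15 for Lypd6b, and leaving out the libraries set apart gave -0.034 for Orc4 and -0.0075 for Rnd3. In striatum minus cerebellum, Lypd6b was 0.14 with the block and Lypd6 -0.0033 without the libraries set apart. In cortex minus striatum, Lypd6b was 0.0071 with the block and 0.064 without the libraries set apart, and Mbd5 0.042 without them. Among WT regions the block ended the calls of Acvr2a (0.47) and Kif5c (0.26) between cerebellum and striatum and added that of Rnd3 (-0.32) between cortex and striatum, and it changed no other call.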
